A study of Mus musculus with 8 samples.

Results

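The 10 genes described here encode subunits of the mitochondrial ATP synthase and were chosen by name: Atp5a1, Atp5b, Atp5c1, Atp5d, Atp5e, Atp5h, Atp5j, Atp5k, Atp5l and Atp5mpl, under their older Atp5 symbols. They are 10 of the 49315 rows of a table of raw read counts from bulk RNA sequencing of mouse bone. The bone came from the femoral shaft of male C57BL6 mice aged 24 weeks, 4 wild-type (WT) and 4 with a homozygous deletion of Girk3 (Girk3-/-, here KO), with no other treatment named. The protocols in the labels have the ends cut from each bone and the marrow flushed out with saline before the bone was homogenised. The series text instead has the shafts cut off, so the labels differ on which part was kept, and the shaft is given here as the sample protocols have it. Girk3 (gene Kcnj9) helps form potassium channels that G proteins open, and neither the deleted stretch nor the cells that lack it are named. Each library was taken as 1 mouse, and if they are not separate mice the p-values measure only the spread between these samples. Kcnj9 itself had 7, 6, 6 and 23 counts in WT and 0, 8, 4 and 7 in KO, too few to check the labels by.

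ATP synthase is a rotary machine of the inner mitochondrial membrane. Protons that the respiratory chain has pumped out flow back through its membrane part (Fo) and turn a ring of c subunits. The ring turns a central stalk inside the catalytic head (F1), which makes ATP from ADP and phosphate, while a peripheral stalk holds the head still. Small membrane subunits sit beside the ring, where they help join the enzyme into the dimers that bend the membrane into cristae. Bone holds osteoblasts and osteoclasts that use respiration, and skeletal muscle, which clings to dissected bone, is rich in this enzyme.

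All 10 subunit mRNAs were higher on average in KO than in WT bone, and none of them passed the test over all genes. Levels are CPM, the count of a gene relative to the size of its library, with sizes scaled by TMM, which balances libraries over most genes. Differences are log2 fold changes of KO over WT from the quasi-likelihood test of edgeR, and p-values were adjusted by the Benjamini-Hochberg method over 17450 tested genes, with 0.05 as the threshold. The median log2 fold change of the 10 was 0.72, beside -0.01 over all tested genes, of which 48.6% were positive, and the range ran from 0.37 for Atp5a1 to 1.02 for Atp5mpl. In this edgeR test 0 of the 10 were called, where 0.0115% of all tested genes were. At an unadjusted p under 0.05 it gave 8 of the 10, all higher in KO, beside 9.59% of all genes in that direction, and 0 lower, beside 8.59%. An adjusted p under 0.10 with a higher level in KO was reached by 6 of the 10, beside 1.83% of all genes. DESeq2 called 7 of the 10 as higher (3.91% of all genes) and limma-voom 6 (2.41%). In 8 of the 10 every KO library lay above every WT library, as it did in 7.33% of all genes, and in 0 of the 10 did every KO library lie below (5.78%). Without both replicates 4, the libraries with the lowest WT and highest KO muscle signal, edgeR called 5 of the 10 as higher (1.61%). The libraries share their mice and their scaling, so the 10 are not independent observations of the genotype.

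The catalytic head is built from alternating alpha and beta subunits, encoded by Atp5a1 and Atp5b. Atp5a1 (chromosome 18, 77773729 to 77782869, plus strand, GRCm38) was at 1690, 1250, 1665 and 1062 CPM in WT replicates 1 to 4, and at 1527, 1932, 1887 and 1952 CPM in KO replicates 1 to 4. WT replicates 2 and 4 were low, and KO replicate 1 lay below WT replicates 1 and 3, so the groups overlapped. Its log2 fold change came to 0.37 (SE 0.21, adjusted p = 0.382 by edgeR). Atp5b (chromosome 10, 128083273 to 128090391, plus strand), whose product holds the catalytic sites, measured 1858, 1402, 1877 and 1242 CPM in the WT mice against 1755, 2134, 2210 and 2182 CPM in the KO mice. The same libraries were low, and the groups overlapped through KO replicate 1. Its log2 fold change came to 0.38 (SE 0.20, adjusted p = 0.354 by edgeR). The alpha and beta mRNAs kept step with each other in every library, with Atp5a1 minus Atp5b at -0.175 ± 0.0367 for WT mice and -0.183 ± 0.0379 for KO mice on the log2 CPM scale (SD, 4 per group). Their Pearson correlation over the 8 libraries was 0.994.

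The central stalk is made of gamma, delta and epsilon, encoded by Atp5c1, Atp5d and Atp5e. Atp5c1 (chromosome 2, 10056016 to 10080510, minus strand), the shaft that turns inside the head, measured 381, 319, 409 and 259 CPM in the WT mice against 448, 465, 499 and 501 CPM in the KO mice. The groups did not overlap, but the gap between WT replicate 3 and KO replicate 1 was small, and the log2 fold change came to 0.48 (SE 0.17, adjusted p = 0.175 by edgeR). Atp5d (chromosome 10, 80138632 to 80145818, plus strand), which couples the shaft to the ring, measured 233, 216, 260 and 201 CPM in the WT mice against 413, 373, 359 and 339 CPM in the KO mice. The KO libraries all lay above the WT libraries, at a fitted log2 difference of 0.71 (SE 0.14, adjusted p = 0.0728 by edgeR). Atp5e (chromosome 2, 174461072 to 174464105, minus strand) encodes epsilon, a small protein at the foot of the shaft. It measured 280, 306, 348 and 270 CPM in the WT mice against 774, 520, 559 and 562 CPM in the KO mice. KO replicate 1 was the highest, and the group means were 301 ± 34.6 and 604 ± 115 CPM (SD, 4 mice per group). Atp5e had a fitted log2 difference of 1.00 (SE 0.17, adjusted p = 0.0714 by edgeR), so 1 gene of F1 differed about as much as any subunit of the membrane part.

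**Figure D1:**
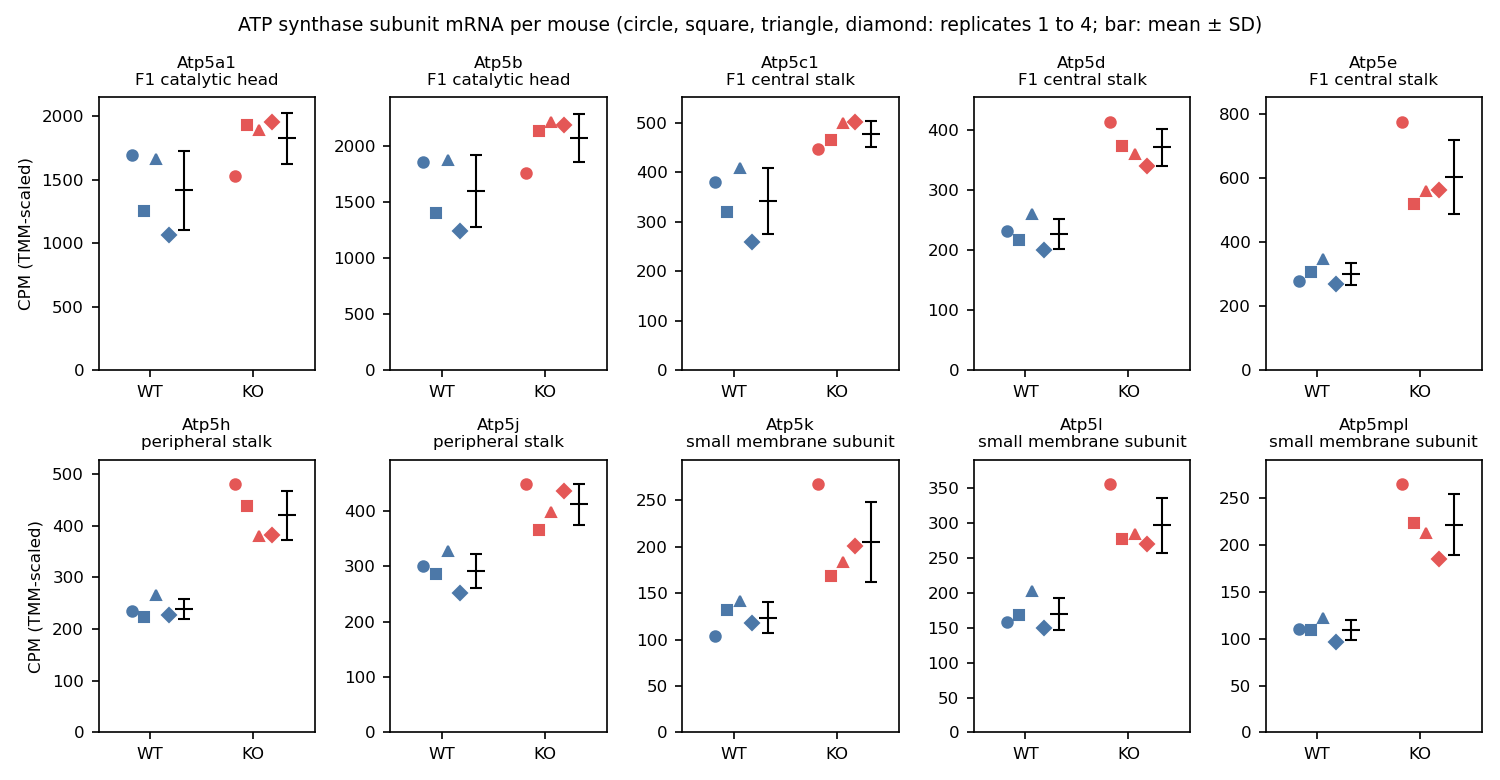
CPM of each of the 10 subunits (vertical axes from 0) in WT (blue) and KO (red) libraries, 1 symbol per mouse with the mean and SD beside it. The groups overlap for Atp5a1 and Atp5b and are apart for the other 8. KO replicate 1 (circle) is the lowest KO library for Atp5a1, Atp5b and Atp5c1. It is the highest for Atp5d, Atp5e, Atp5h, Atp5j, Atp5k, Atp5l and Atp5mpl.

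The peripheral stalk includes subunit d, encoded by Atp5h, and coupling factor 6, encoded by Atp5j. Atp5h (chromosome 11, 115415689 to 115419962, minus strand) measured 236, 224, 266 and 226 CPM in the WT mice against 480, 438, 381 and 383 CPM in the KO mice. The WT libraries lay close together and below all KO libraries, and the log2 fold change came to 0.82 (SE 0.14, adjusted p = 0.0714 by edgeR). Atp5j (chromosome 16, 84827866 to 84835625, minus strand) measured 300, 286, 327 and 252 CPM in the WT mice against 447, 365, 397 and 436 CPM in the KO mice. The groups did not overlap, and the log2 fold change came to 0.50 (SE 0.14, adjusted p = 0.123 by edgeR). Atp5j shares 397 exonic bases with Gabpa on the opposite strand, so without a stated strand setting some reads of either gene cannot be assigned. Gabpa encodes the DNA-binding subunit of an ETS-family factor that is known to bind promoters of respiratory chain genes. It averaged 42.4 ± 2.61 CPM in WT against 40.8 ± 2.61 CPM in KO mice (SD, 4 mice per group, log2 fold change -0.06, adjusted p = 0.815 by edgeR). It is named here for its position beside Atp5j.

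The small membrane subunits are e, g and the 6.8 kDa proteolipid, encoded by Atp5k, Atp5l and Atp5mpl. Atp5k (chromosome 5, 108433244 to 108434448, minus strand), a subunit of the dimer interface, measured 104, 132, 142 and 118 CPM in the WT mice against 267, 168, 184 and 201 CPM in the KO mice. KO replicate 1 stood above the other KO libraries, all of which lay above WT, at a fitted log2 difference of 0.73 (SE 0.17, adjusted p = 0.0914 by edgeR). Atp5l (chromosome 9, 44912557 to 44920742, minus strand), its partner at that interface, measured 159, 168, 203 and 150 CPM in the WT mice against 356, 277, 284 and 270 CPM in the KO mice. The groups did not overlap, and the log2 fold change came to 0.81 (SE 0.15, adjusted p = 0.0728 by edgeR). Atp5mpl (chromosome 12, 111961375 to 111966977, minus strand) measured 110, 109, 122 and 96.6 CPM in the WT mice against 265, 224, 213 and 186 CPM in the KO mice. The lowest KO library was well above the highest WT library, and Atp5mpl had the smallest p of the 10, ranking 8 of 17450 genes (log2 fold change 1.02, SE 0.14, adjusted p = 0.0675 by edgeR).

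The counts of Atp5l and Atp5h could be split with near-identical copies elsewhere in the genome, because how multi-mapping reads were counted is not stated. Of the 50-base words in the protein-coding transcripts of Atp5l, 84.8% also occur in annotated transcripts of other genes, those that overlap it included. The share was 36.9% for Atp5h and 10.7% for Atp5j. It was 3.14% for Atp5c1, 2.76% for Atp5a1, 1.08% for Atp5k and 0.857% for Atp5b, and no word of Atp5d, Atp5e or Atp5mpl was shared. The whole coding sequence of Atp5l, 309 bases, is identical to the processed pseudogene Gm10221 (chromosome 5, 24581554 to 24581862, minus strand). The start of that shared stretch, coding bases 1 to 90 from the GENCODE M21 transcripts, is shown because a read inside it fits both places. It is all in lower case, since the 2 sequences have 0 mismatches.
Atp5l and Gm10221: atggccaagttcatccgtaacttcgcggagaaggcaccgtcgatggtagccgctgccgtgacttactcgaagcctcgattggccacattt
Gm10221 itself held 61, 68, 69 and 101 counts in WT and 165, 121, 113 and 97 in KO, little beside the 60073 counts of Atp5l over the 8 libraries. Its log2 fold change came to 0.91 (SE 0.21, adjusted p = 0.0841 by edgeR), in the direction of Atp5l. The closest copy of Atp5h, the pseudogene Gm10250, held 57 to 60 counts in WT and 74 to 98 in KO, a fitted log2 difference of 0.69 (SE 0.20, adjusted p = 0.129 by edgeR). In all, the 18 other genes that share any word with Atp5h held 66333 counts over the 8 libraries. The 14 that share words with Atp5l held 1890. How many of those counts came from the shared words is not known. The levels of both Atp5l and Atp5h are therefore uncertain.

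The F1 subunits and the small membrane subunits were not set apart by genotype: the groups overlapped. The mean level of the 3 small membrane mRNAs minus that of the 5 F1 mRNAs was -2.298, -1.945, -2.093 and -1.915 log2 CPM in WT replicates 1 to 4, and -1.495, -1.908, -1.911 and -1.950 in KO replicates 1 to 4. WT replicate 1 was low and KO replicate 1 high, and the other 6 libraries lay between -2.093 and -1.908. The group means were -2.06 ± 0.175 and -1.82 ± 0.215 (SD, 4 mice per group), a difference near the SD of either group, and no test was run because the subunits were chosen with results known. In the fitted values the small membrane subunits exceeded F1 by a mean log2 fold change of 0.26, which was 0.15 without KO replicate 1, 0.19 without WT replicate 1, 0.31 without KO replicate 4, 0.35 without both replicates 4 and 0.40 with the muscle level of each library as a covariate. Within F1 the alpha and beta mRNAs (0.37 and 0.38) had smaller values than gamma (0.48), delta (0.71) and epsilon (1.00). Set against the catalytic head alone, the small membrane mRNAs were at -3.860, -3.300, -3.537 and -3.265 log2 CPM in WT and -2.483, -3.215, -3.193 and -3.255 in KO. These ranges were apart, but only by the short step from -3.265 to -3.255. Alpha and beta together took 66.3, 60.1, 63.0 and 59.4% of the counts of the 10 genes in WT and 48.8, 59.0, 58.8 and 59.0% in KO.

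**Figure D2:**
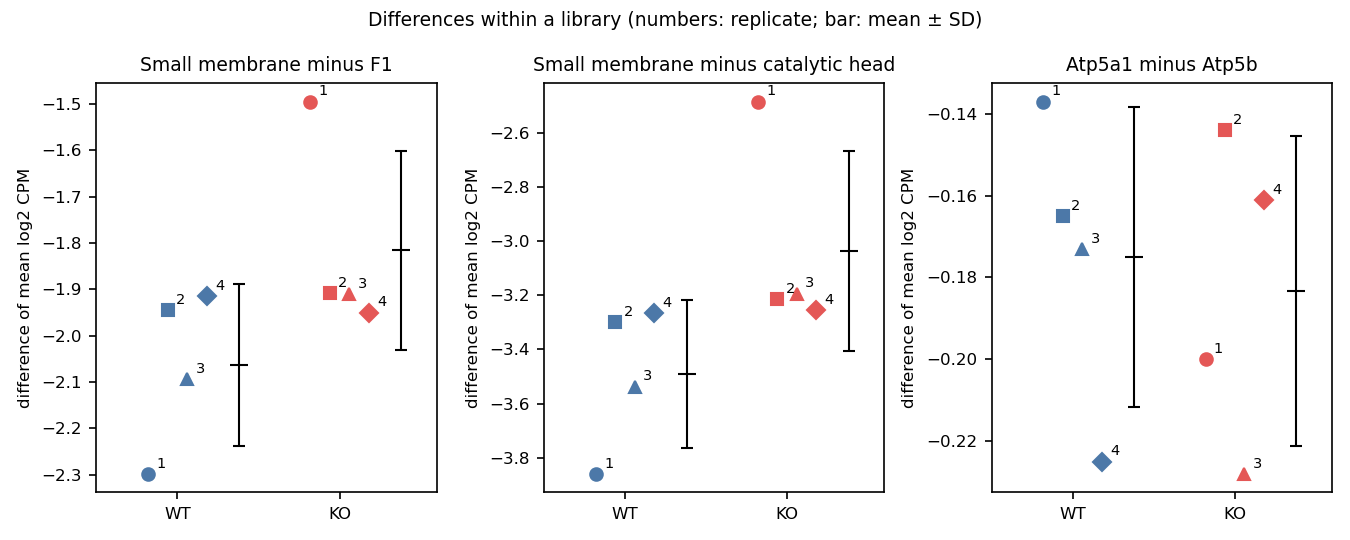
Differences of mean log2 CPM within each library (vertical axes, 1 point per mouse, numbered by replicate, with mean and SD) for small membrane subunits against F1, small membrane subunits against the catalytic head, and Atp5a1 against Atp5b. WT replicate 1 and KO replicate 1 lie at the ends of the first 2 panels, and the third panel spans only from -0.228 to -0.137.

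Transcript length moved with this pattern. Over all tested genes the median log2 fold change went from 0.25 in the decile of genes with the shortest transcripts (up to 948 bases) to -0.22 in the decile with the longest (from 6351 bases), by the longest protein-coding transcript of each gene. The 6 subunits with transcripts of 371 to 809 bases (Atp5k, Atp5e, Atp5l, Atp5mpl, Atp5h and Atp5j) all fall in the shortest decile, while Atp5a1 has 2674 bases and Atp5b 1916. Their log2 fold changes, from 0.50 to 1.02, were above the median of that decile, and Atp5a1 and Atp5b were above the medians of theirs (0.02 and 0.12). By library, the level of the shortest decile minus that of the longest was -0.489, -0.242, -0.163 and 0.020 log2 CPM in WT and 0.625, 0.098, 0.163 and 0.173 in KO, each relative to the mean of all libraries. WT replicate 1 and KO replicate 1 are again the extremes. With this trend removed from each library, the median of the 10 was 0.40 and that of all genes -0.01, and the small membrane subunits exceeded F1 by 0.06 in place of 0.26. Each of the 10 stayed positive, from 0.19 for Atp5j to 0.67 for Atp5mpl. In that fit edgeR called 0 of the 10 (0.00573% of all genes as higher), and 6 had an unadjusted p under 0.05 and a positive value, beside 6.38% of all genes. Lengths from merged exons, which count retained introns and put Atp5l at 6443 bases, gave a median of 0.49, with 0 of the 10 called and 7 at an unadjusted p under 0.05 and higher in KO (7.35% of all genes).

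**Figure D3:**
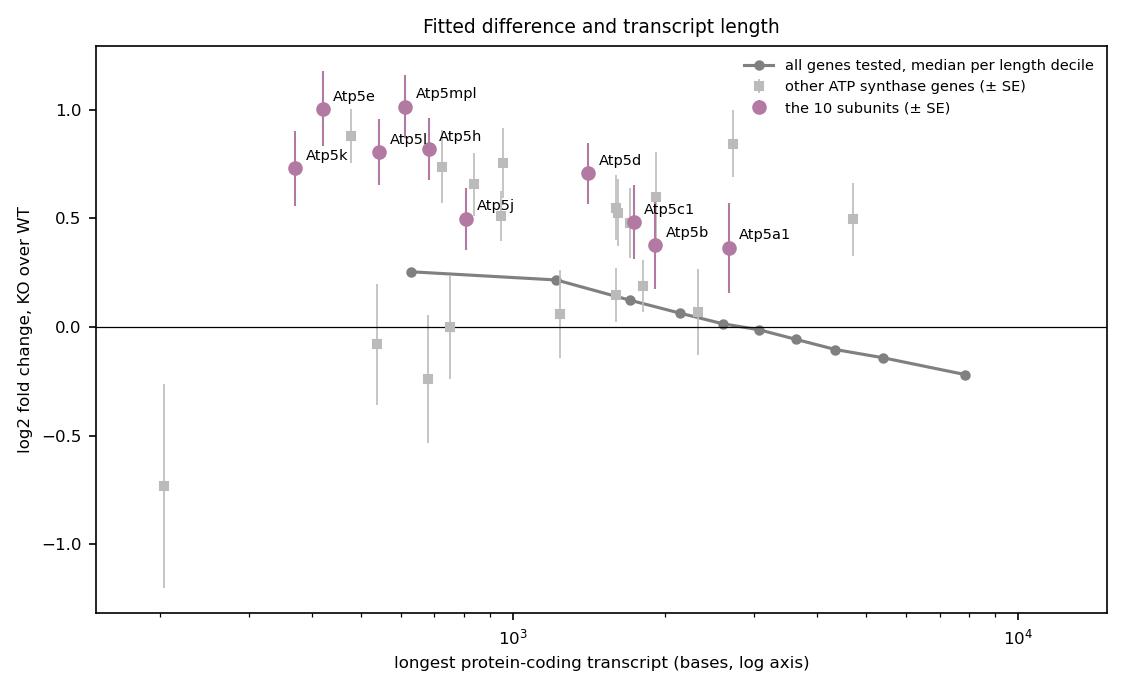
edgeR log2 fold change (vertical axis) against the longest protein-coding transcript (horizontal log axis, bases) for the 10 subunits and the other ATP synthase genes, with SE, and the median of all tested genes per length decile at its median length. The 10 subunits lie above the decile line at every length, from 0.37 for Atp5a1 to 1.02 for Atp5mpl.

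Markers of other tissues were measured in the same libraries, and fewer cells of a type cannot be told apart from less RNA per cell in bulk bone. Bone markers were present in all 8 libraries, the 14 osteoblast and osteocyte genes summing to 9763 to 22580 CPM in WT and 10670 to 19080 CPM in KO, with 10 of 14 log2 fold changes negative and a median of -0.22. The 18 skeletal muscle markers summed to 76480 to 142100 CPM in WT and 121800 to 201400 CPM in KO, with 14 of 18 log2 fold changes positive. Their share of the counts was 12.7, 13.5, 14.0 and 9.01% in WT and 12.7, 12.8, 15.0 and 16.7% in KO. The alpha and beta mRNAs were lowest in WT replicate 4, the library with the least muscle signal, and with the muscle level as a covariate their log2 fold changes were 0.14 and 0.18. In that fit Atp5mpl (1.03), Atp5e (1.01), Atp5h (0.83), Atp5l (0.79), Atp5k (0.75) and Atp5d (0.67) kept their size, and edgeR called these 6 of the 10 as higher, where 5.31% of all genes were. Atp5c1 (0.30) and Atp5j (0.40) were not called.

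The summed levels of the other marker lists overlapped between the groups. Neutrophil markers, with 10 of 10 log2 fold changes positive, spanned 1620 to 5656 CPM in WT and 813 to 7689 CPM in KO. Erythroid markers (3 of 9 positive) spanned 3706 to 11760 and 4482 to 8983 CPM. Adipocyte markers, 6 of 6 tested positive, spanned 345 to 447 and 445 to 681 CPM, and 2 of the 7 listed were under 1 CPM. Osteoclast markers (6 of 8 positive) spanned 433 to 811 and 538 to 806 CPM, B cell markers (3 of 8) 130 to 190 and 109 to 205 CPM, and macrophage markers (4 of 8) 150 to 291 and 129 to 247 CPM. Endothelial markers (4 of 6) spanned 441 to 507 and 414 to 557 CPM, and cartilage markers (1 of 4 tested, 6 listed) 169 to 398 and 167 to 282 CPM. Several of these lists moved in the fits in which edgeR called 6 and 5 of the 10 subunits, namely with the muscle level as a covariate and without both replicates 4. The neutrophil median went from 0.49 to 1.48 and 1.25 in these fits. The muscle fit called S100a8, S100a9, Camp, Mpo and Elane as higher and the other fit called Camp. The muscle fit also called the macrophage markers C1qa, C1qb and C1qc as higher and the endothelial marker Cdh5 as lower. It called none of the other endothelial markers: Emcn had 0.22, Egfl7 0.13, Tek -0.07, Pecam1 -0.12 and Kdr -0.22. Of all 17450 tested genes, the muscle fit called 1536 in either direction. C1qa was called as higher by the other fit too, and all these genes were named after their values were seen. The median of the osteoblast and osteocyte markers turned to 0.04 and 0.05, that of the B cell markers went from -0.37 to 0.15 and 0.06, and that of the erythroid markers from -0.45 to 0.01 and 0.03. The osteoclast median went from 0.17 to 0.47 and 0.44 and the macrophage median from 0.03 to 0.49 and 0.39. The endothelial median went from 0.03 to -0.10 and -0.09. The direction of the osteoblast and osteocyte, B cell, erythroid and endothelial medians therefore rests on the fit. The neutrophil, osteoclast and macrophage medians stayed positive in these fits and changed in size. That of the macrophage markers was -0.05 with either length trend removed. No listed marker was at 0 in all libraries, and the part of these lists in the subunit values was not tested apart from muscle.

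**Figure D4:**
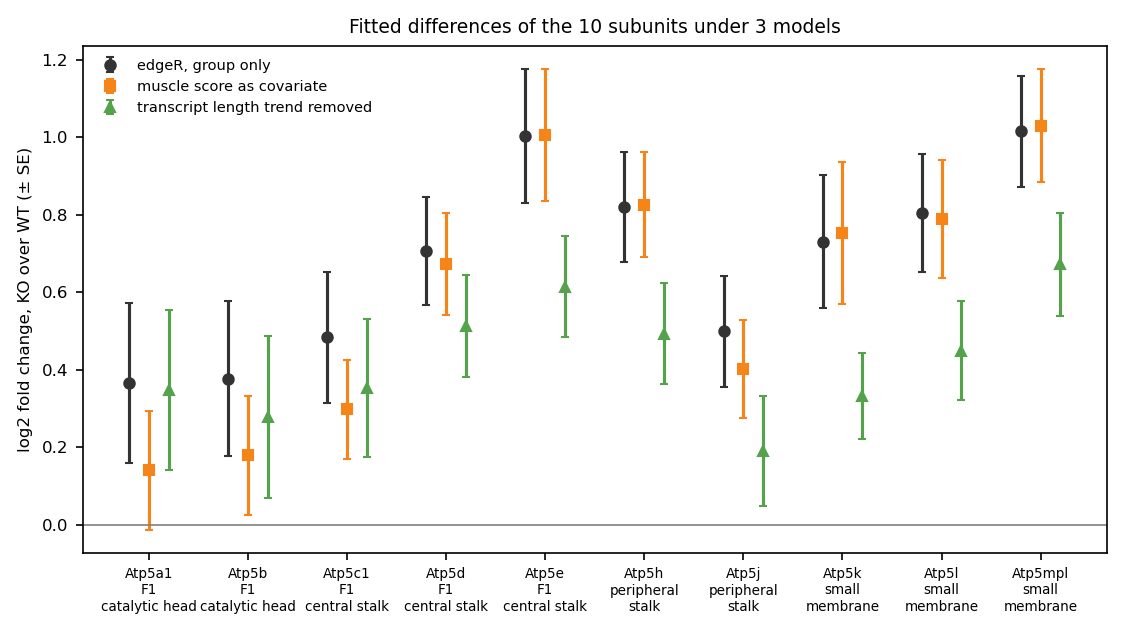
Fitted log2 fold change of KO over WT with SE (vertical axis) for the 10 subunits (horizontal axis) with group as the only term, with the muscle score as a covariate, and with the transcript length trend removed. The muscle score takes Atp5a1 and Atp5b to 0.14 and 0.18 and leaves Atp5mpl at 1.03, whereas removal of the length trend takes Atp5mpl to 0.67 and leaves Atp5a1 at 0.35.

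Per kilobase of the longest protein-coding transcript, the catalytic and epsilon mRNAs were the most abundant of the 10. In WT, Atp5b was at 832 ± 168 CPM per kilobase, Atp5e at 715 ± 82.3 and Atp5a1 at 530 ± 116 (SD, 4 mice per group). Atp5j (360 ± 38.5), Atp5h (349 ± 28.6), Atp5k (333 ± 45.1) and Atp5l (312 ± 42.8) followed, each within the spread of the next. Atp5c1 (197 ± 38.6), Atp5mpl (179 ± 17.2) and Atp5d (161 ± 17.9) were lowest and did not differ beyond their spread. In KO the first place went to Atp5e, at 1433 ± 273 CPM per kilobase, with Atp5b at 1081 ± 111 and Atp5a1 at 682 ± 74.8, and the lowest were Atp5mpl (362 ± 53.6), Atp5c1 (276 ± 15.1) and Atp5d (263 ± 22.1). Per kilobase of merged exons the WT order was led by Atp5a1 (452 ± 99.1) and Atp5b (376 ± 76.0), and Atp5l came last at 26.4 ± 3.61. The order of the short subunits thus rests on which transcript lengths are taken.

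Most of the other genes of the enzyme had values in the same direction. Of 19 further genes of structure, assembly, regulation and substrate supply, 15 had positive log2 fold changes (48.6% of all genes), and the median was 0.50. The main edgeR test called 0 (0.0115% of all genes) and DESeq2 called 10 as higher (3.91%). In 11 every KO library lay above every WT library (7.33%). Among structural subunits, Atp5md (also Usmg5), a small membrane subunit, had 0.84 (SE 0.15, adjusted p = 0.0728 by edgeR) and Atp5j2, subunit f, had 0.75. Subunits b and OSCP of the peripheral stalk, encoded by Atp5f1 and Atp5o, had 0.55 and 0.66. The assembly factor gene Fmc1 averaged 26.7 ± 2.65 CPM in WT against 49.0 ± 6.36 CPM in KO mice, a fitted log2 difference of 0.88 (SE 0.12, adjusted p = 0.0675 by edgeR). Tmem242 and Tmem70, which also act in assembly, had 0.51 and 0.48, whereas Atpaf1 and Atpaf2, chaperones of alpha and beta, had 0.07 and 0.19.

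In the main fit the inhibitor of the enzyme and its 2 mitochondrially encoded subunits did not share that direction. Atpif1, which blocks the enzyme when it runs backwards, averaged 86.7 ± 38.6 CPM in WT against 82.1 ± 19.0 CPM in KO mice (SD, 4 mice per group), with a log2 fold change of -0.08 (adjusted p = 0.915 by edgeR). WT replicate 4 was its highest library, and without it the value was 0.26. Atpif1 was also positive by limma-voom (0.16), with the muscle score (0.38) and without both replicates 4 (0.36). It was -0.30 and -0.42 with the exon and transcript length trends removed. The subunits a and A6L come from mitochondrial DNA as mt-Atp6 and mt-Atp8, which had log2 fold changes of -0.24 and -0.73 (adjusted p = 0.725 and 0.452 by edgeR). The values of mt-Atp6 were -0.66 by limma-voom, -0.70 with the muscle score and -0.74 without both replicates 4. Those of mt-Atp8 were -1.51 by limma-voom, which called it as lower (adjusted p = 0.0493 by limma-voom), -1.38 with the muscle score and -1.498 without both replicates 4 (adjusted p = 0.0817 and 0.0530 by edgeR). Of all 17450 tested genes, limma-voom called 285 as lower. Per kilobase of transcript, their WT levels of 24.4 ± 5.60 and 19.3 ± 4.68 CPM were far below that of mt-Nd5, at 4991 ± 1466 CPM. Low WT means were shared by mt-Nd4l (28.7 CPM per kilobase), mt-Co2 (31.1), mt-Co3 (36.1) and mt-Nd3 (161). Those of mt-Nd1, mt-Nd2, mt-Nd4, mt-Nd6, mt-Co1 and mt-Cytb were above that of mt-Nd5. Of the 50-base words of mt-Atp6, 99.5% also occur in the nuclear copy Gm10925, so its count says little about the mitochondrial transcript.

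Beside the other respiratory chain complexes the 10 subunits did not stand out. Calls by edgeR for the lists below are those of the main test (0.0115% of all genes) unless a fit is named. DESeq2 called 3.91% of all genes as higher, and its false calls exceeded the threshold on simulated data. The 36 nuclear subunits of complex I had a median log2 fold change of 0.63, with 36 positive, 0 called by edgeR and 30 by DESeq2. Its smallest p-values belonged to Ndufc2 (0.82), Ndufb2 (0.76) and Ndufc1 (0.82). The 22 nuclear subunits of complexes III and IV had a median of 0.65, with 22 positive, 0 called by edgeR and 16 by DESeq2. Their smallest p-values belonged to Cox6b1 (0.91), Uqcrh (0.79) and Cox7a1 (0.81). With the transcript length trend removed the medians were 0.37 for complex I and 0.32 for complexes III and IV, beside 0.40 for the 10 subunits. The V-ATPase is a rotary relative that pumps protons into lysosomes and, in osteoclasts, onto bone. Its 17 subunits had a median of 0.15, with 14 positive, 0 called by edgeR and 2 by DESeq2. That median was 0.28 with the muscle score and 0.28 without WT replicate 4, and 0.09, 0.10 and 0.10 without KO replicate 1, WT replicate 3 and KO replicate 3. With the length trend removed it was 0.08 by transcripts and 0.07 by merged exons. Its smallest p-values belonged to Atp6v1e1 (0.39), Atp6v1d (0.38) and Atp6v1h (0.32). With the muscle score edgeR called mt-Nd5, mt-Nd4l and mt-Co1 as lower (adjusted p = 0.0157, 0.044 and 0.0467 by edgeR). That fit called 1536 of 17450 genes in either direction. Without both replicates 4 edgeR called mt-Nd5, mt-Nd4 and mt-Co3 as lower (adjusted p = 0.0294, 0.0425 and 0.0431 by edgeR). There it called 458 of 17491 genes in either direction. The WT levels of mt-Nd4l and mt-Co3 were among the low ones given above. The 13 mitochondrially encoded genes had a median of -0.24 with 10 negative and 0 called by the main edgeR test or DESeq2, while limma-voom called 1 (mt-Atp8). That median was -0.09 without KO replicate 2, -0.41 without WT replicate 4, -0.59 without KO replicate 4, -0.74 without both replicates 4 and -0.70 with the muscle score, and -0.55 with the transcript length trend removed. The median transcript length was 745.5 bases for the 10 subunits, 977 for complex I, 669.5 for complexes III and IV and 2189 for the V-ATPase. Mitochondrially encoded genes took 11.3, 11.8, 10.7 and 8.43% of the counts in WT and 7.31, 5.81, 7.05 and 11.6% in KO, which overlapped through KO replicate 4. Differences between these lists were not tested.

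**Figure D5:**
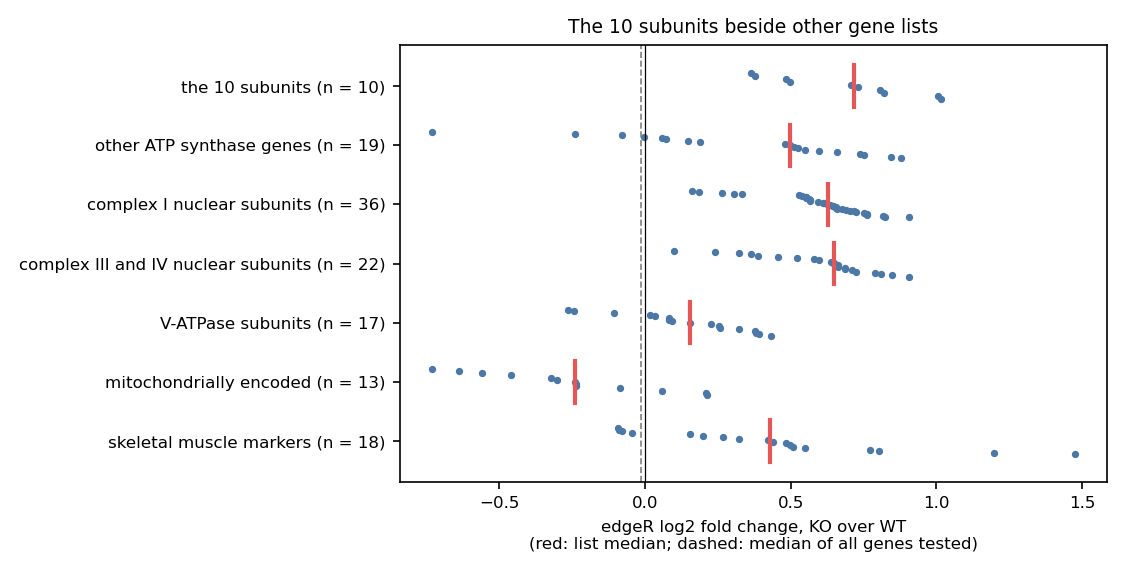
edgeR log2 fold changes (horizontal axis) of every gene in 7 lists, 1 point per gene, with the list median in red and the median of all tested genes dashed. The medians of the 10 subunits (0.72) and of complexes I (0.63) and III and IV (0.65) lie close together, that of the V-ATPase is 0.15, and that of the mitochondrially encoded genes is -0.24.

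The genes whose levels followed Atp5mpl most closely over the 8 libraries included 2 of the respiratory chain and 1 of the ATP synthase itself. Among 9716 genes with a mean of at least 10 CPM and outside the 10, the highest Pearson correlations of log2 CPM with Atp5mpl were those of Cox6b1 (0.997), Atp5md (0.992), Churc1 (0.989), Uqcrh (0.989) and Minos1 (0.989). Those with Atp5b were Cyc1 (0.993), Stard7 (0.992), Mdh2 (0.988), Decr1 (0.986) and Acadm (0.980). Log2 fold changes of these genes were 0.32 to 0.44, near that of Atp5b, as the selection over both groups favours. Within the 10, Atp5a1 correlated least with Atp5k (0.419) and Atp5e (0.574), while Atp5e and Atp5l reached 0.993. All libraries share their scaling and 2 groups, so these are descriptions of 8 points each.

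Promoter windows were available for 8 of the 10 genes in RefSeq sequence of GRCm38.p6, and 4 are shown because they cover alpha's partner beta, which had a small difference, and subunits of the stalks and membrane that had larger ones. Each window is the 250 bases before the start annotated in RefSeq, 5′ to 3′ on the gene's strand. By the gene limits given above, which are from GENCODE, each of the 4 windows shown runs into its gene. Capitals mark matches on either strand to CCGGAAG (ETS factors), a motif of the factor NRF1, CCAAT and GGGCGG (a GC box). In the NRF1 motif a middle base may be any letter, so a match need not be a palindrome.
Atp5b, chr10:128083057-128083306, plus strand: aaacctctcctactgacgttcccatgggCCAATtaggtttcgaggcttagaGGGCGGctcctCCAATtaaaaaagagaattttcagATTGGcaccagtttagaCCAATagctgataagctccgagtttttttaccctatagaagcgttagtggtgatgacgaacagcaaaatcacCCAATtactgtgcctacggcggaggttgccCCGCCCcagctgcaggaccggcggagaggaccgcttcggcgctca
Atp5e, chr2:174464102-174464351, minus strand: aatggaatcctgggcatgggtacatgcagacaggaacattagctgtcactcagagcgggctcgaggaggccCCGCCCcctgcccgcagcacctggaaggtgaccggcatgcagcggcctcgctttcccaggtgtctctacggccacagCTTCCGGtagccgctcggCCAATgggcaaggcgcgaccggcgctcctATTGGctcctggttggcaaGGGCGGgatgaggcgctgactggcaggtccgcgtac
Atp5h, chr11:115419920-115420169, minus strand: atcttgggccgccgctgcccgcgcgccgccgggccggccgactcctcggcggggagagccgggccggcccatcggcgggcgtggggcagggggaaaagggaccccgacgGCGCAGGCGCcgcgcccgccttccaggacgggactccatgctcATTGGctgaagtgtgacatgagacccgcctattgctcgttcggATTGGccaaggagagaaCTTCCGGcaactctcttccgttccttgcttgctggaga
Atp5k, chr5:108434400-108434649, minus strand: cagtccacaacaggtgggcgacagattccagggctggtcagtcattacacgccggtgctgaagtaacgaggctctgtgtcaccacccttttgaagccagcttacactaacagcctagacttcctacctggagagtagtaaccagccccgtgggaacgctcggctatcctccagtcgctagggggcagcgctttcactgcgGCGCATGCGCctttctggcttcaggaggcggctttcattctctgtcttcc
Atp5c1, Atp5d and Atp5j have 2 windows each, and a gene counts where either holds a match. The counts below are of genes and the shares beside them are of windows, which are unlike units. Atp5d, with a log2 fold change of 0.71, had no match in either window. A link between matches and differences was not tested. The ETS letters occurred in 4 of the 8 genes (Atp5e, Atp5h, Atp5j and Atp5l), where 6.91% of all 32851 windows of this length hold them. The NRF1 letters occurred in 3 (Atp5c1, Atp5h and Atp5k), beside 3.74% of all windows. CCAAT occurred in 5 (33.9% of all windows), 5 times in the window of Atp5b, and the GC box in 3 (32.7%). The half-site AAGGTCA of estrogen-related receptors occurred in Atp5l alone (4.08% of all windows). By the GENCODE limits, the ETS matches of Atp5h and Atp5j and the NRF1 match of Atp5c1 lie inside their genes. All but the edge of the NRF1 match of Atp5k lies inside its gene too. A match is a run of letters and not a measured binding site.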

How the data were processed

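The authors deposited whole-number read counts per Ensembl gene, 1 column per sample. Per the submitters' processing notes the build was mm10. The tools named there are STAR 2.5.2b, bcl2fastq 2.17 and, for counting, featureCounts (Subread 1.5.2). The sources used here do not give the annotation, the strand setting or the treatment of multi-mapping reads. GENCODE M21 (GRCm38, the same build) named 49056 of the 49315 IDs. The other 259 took 0.019 to 0.0225% of a library.

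Library totals were 30087749 to 36553713 counts, and the chi-square between any 2 libraries was at least 39.4 per degree of freedom, so none repeats another.

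edgeR 4.0.16 (R 4.3.3) compared KO with WT over all 8 samples: filterByExpr, TMM, robust quasi-likelihood, group as the only term. Log2 CPM used a prior count of 2. Alternatives were DESeq2 1.42.0, limma-voom 3.58.1 with quality weights, other scalings and filters, the replicate number as a block, a muscle score, loess removal of length and GC trends (span 0.3), and omission of libraries. The trend by protein-coding transcript length was added after seeing the data. The fits were tested on simulated data, where the share of false calls stayed under the threshold of 0.05 with edgeR and limma-voom and exceeded it with DESeq2, and where edgeR missed most of the smallest changes. Genes were named as the 10 subunits, further ATP synthase genes, the 3 smallest p-values of each other pathway list, and 5 correlated genes each for Atp5mpl and Atp5b. Further markers and mitochondrially encoded genes were named after their values were seen. Members and lists were chosen with earlier results of these data known. Single counts carry counting error, which is small at these levels.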

Additional observations from a re-analysis of the deposited data

Results flagged for a closer look

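Of 92 groups of 4 libraries examined, 13 had 1 library far from the others by Dixon's criterion, where chance gives about 1 in 20. KO replicate 1 was that library in 12 of them. Its log2 CPM was lowest of the KO group for Atp5a1 (10.6, the others 10.9) and Atp5b (10.8, the others 11.1), and highest for Atp5f1 (9.26, the others at most 9.14) and Atp5j2 (8.80, the others at most 8.34). By class it was lowest for the catalytic head (10.7, the others 11.0) and highest for the small membrane subunits (8.20, the others at most 7.80) and for the mean of the 10 (9.07, the others at most 8.92). Its differences within the library were the highest of the KO group, at -1.495 log2 CPM for small membrane against F1, -2.48 for small membrane against the catalytic head and -1.18 for Atp5e against Atp5b. Its share of alpha and beta in the counts of the 10 genes was the lowest at 48.8%. The level of the shortest decile of all genes minus that of the longest was also highest there, at 0.625 log2 CPM. In WT replicate 1 Atp5g2 took 9.62% of the counts of the 3 c-subunit genes, below the 12.7 to 12.8% of the other WT libraries.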

How the results depend on the processing

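Under all 20 alternatives the 10 subunits kept positive log2 fold changes. Calls moved with the method. The count of called genes among the 10, 0 in the main test, was 7 with DESeq2, 6 with limma-voom, 6 with the muscle score, 5 without both replicates 4 and 4 without a low-count filter (0.171% of all genes then called as higher). It was 0 with each single library left out and in the other alternatives. Over all genes the count of 2 became 992 with DESeq2, 705 with limma-voom, 1536 with the muscle score, 458 without both replicates 4, 71 without a low-count filter and 1 with the replicate block, and it ranged from 2 to 4 over the left-out libraries, 4 without KO replicate 4. The median of the 10 was 0.49, 0.52 and 0.40 with the trend removed for exon length, exon length with GC content, and transcript length, and 0.61 to 0.79 over left-out libraries. The small membrane excess over F1 was 0.064 with the transcript length trend removed, 0.40 with the muscle score, 0.35 without both replicates 4 and 0.15 to 0.31 over left-out libraries. Library totals without TMM shifted the median of all genes to -0.11 and that of the 10 to 0.63.

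Among the ATP synthase genes, signs reversed for 5 of the 19 outside the 10. The log2 fold change of Atp5g2 (-0.00) ran from -0.229 to 0.162 over left-out libraries, and was -0.24 with limma-voom, -0.24 with the muscle score, -0.28 without both replicates 4 and -0.32 with the transcript length trend removed. The log2 fold change of Atpif1 was 0.16 with limma-voom, 0.38 with the muscle score and 0.36 without both replicates 4, and from -0.223 to 0.264 over left-out libraries, positive without KO replicate 3, KO replicate 4 or WT replicate 4. The log2 fold change of Atp5s was -0.0064, -0.0587 and -0.0055 with the 3 trends removed. The log2 fold change of Atpaf1 was -0.0235 with library totals, -0.24 with the muscle score, -0.16 without both replicates 4, and from -0.060 to 0.216 over left-out libraries, negative without WT or KO replicate 4. The log2 fold change of Slc25a5 was -0.0517 with library totals, -0.14, -0.15 and -0.16 with the trends removed, and from -0.0292 to 0.261 over left-out libraries. It was 0.24 with limma-voom, 0.38 without both replicates 4 and 0.44 with the muscle score, where edgeR called it as higher (adjusted p = 0.0286). Gabpa was 0.01 and 0.07 with the exon and transcript length trends removed. Their cause was not tested.

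Same-numbered WT and KO libraries did not deviate together (correlations of -0.187, -0.166, -0.247 and -0.568), and no sample correlated best with its own number. These correlations over all genes gave no sign that the numbers pair the samples. They could not show a shared effect that is small beside the other differences between libraries. With the block the median of the 10 was 0.71, the small membrane excess 0.25 and the members called 0.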

Other observations

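The c subunit of the rotor ring is encoded by 3 genes whose mature proteins are the same, and their values were unlike. Atp5g3 averaged 374 ± 53.5 CPM in WT against 625 ± 81.5 CPM in KO mice (SD, 4 mice per group, with a log2 fold change of 0.74 and an SE of 0.17, adjusted p = 0.0841 by edgeR). Atp5g1 was at 349 ± 48.2 and 493 ± 76.3 CPM (0.50, adjusted p = 0.166 by edgeR). Atp5g2 was at 98.1 ± 16.3 and 98.0 ± 34.3 CPM (-0.00, adjusted p = 0.997 by edgeR). The share of Atp5g2 in the counts of the 3 genes was 9.62, 12.8, 12.7 and 12.8% in WT and 7.93, 5.10, 7.22 and 12.1% in KO, which overlapped through KO replicate 4. Of the 50-base words of Atp5g2, 38.3% occur in other annotated transcripts, against 0% for Atp5g3.

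The values of the carriers that supply the enzyme depended on the fit. Slc25a4, the ADP/ATP carrier of muscle and heart, averaged 2572 ± 533 CPM in WT against 3890 ± 219 CPM in KO mice (a log2 fold change of 0.60 with an SE of 0.21, adjusted p = 0.175 by edgeR), and every KO library lay above every WT library. Slc25a5, the carrier of most other cells, was at 77.2 ± 20.9 and 80.5 ± 16.1 CPM (0.06, adjusted p = 0.914 by edgeR), with a negative sign under library totals and with the length trends removed. With the muscle score Slc25a5 was 0.44 (adjusted p = 0.0286 by edgeR) beside 0.42 for Slc25a4, and without both replicates 4 they were 0.38 and 0.45. The phosphate carrier gene Slc25a3 was at 551 ± 76.7 and 793 ± 10.8 CPM (0.53, SE 0.15, adjusted p = 0.128 by edgeR). Differences between these genes were not tested.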
